A study of Mus musculus with 19 samples.

Results

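The liver response to remote limb ischemic conditioning (RIC) that mice on normal chow (NC) and mice on a choline-deficient, fat-rich diet with defined amino acids (CDAHFD) had in common was measured over all 19 deposited RNA-seq samples. In RIC the blood supply of a limb is stopped and restored, and a distant organ, here the liver, is examined and compared with that of sham controls. The samples were chosen by their labels alone: 10 sham (5 NC, 5 CDAHFD) and 9 RIC (5 NC, 4 CDAHFD), which is 19 of the 19 in the series. Every mouse was wild type (WT), and the CDAHFD is a diet used to bring on steatohepatitis, an inflamed and fatty liver. Strain, sex, age, the limb, the number of ischemia cycles and the time from RIC to harvest, and the feeding state, were not stated in the labels used here. The labels number the replicates without naming animals, so the p-values reflect only how much these samples vary, which may be technical.

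Heat shock chaperones bind unfolded proteins and help them fold; HSP70 proteins such as those of Hspa1a, Hspa1b and Hspa8 do so together with J-domain partners such as Dnajb1 and exchange factors such as Hsph1 and Bag3. Their stress-induced members are switched on by heat shock factors, which bind repeats of a short inverted motif, the heat shock element, and the response is known for heat, oxidants and misfolded protein in liver as in other tissues. The liver also makes large amounts of metallothioneins, which bind zinc and respond to zinc, glucocorticoids and inflammation, and it switches genes of glucose release and fat oxidation with feeding and fasting.

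Expression was deposited as FPKM, the fragments of a gene per kilobase of its length, relative to all fragments mapped in the sample, and was compared as log2(FPKM + 1) for the 10577 genes whose mean over the 19 samples reached 1 FPKM. The depth estimated for single samples ran from 15.9 to 26.4 M reads. At the mean of 19.7 M reads, 1 read in a gene of 2 kb is worth about 0.0254 FPKM. The first principal component (75.6% of the variance) separated the diets and the second (5.61%) placed every RIC sample above every sham sample of its diet. CDAHFD sham 2 and 5 stood apart on the fourth component (20.6 and 16.6, against -13.6 to 4.71 in the other 17), so counts are also given without them. Albumin (Alb) was at 24700 to 49000 FPKM by group mean, and none of 11 skeletal muscle markers reached the level tested (summed level at most 1.93 FPKM). Levels are given as mean ± SD, with n = 4 in CDAHFD RIC and n = 5 elsewhere; differences are RIC minus sham on the log2(FPKM + 1) scale ± SE, which understates the change of genes near 1 FPKM, and folds are ratios of mean FPKM.

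With diet as a covariate, heat shock chaperone genes were lower after RIC, while metallothionein genes, the RNA-binding protein gene Cirbp and several drug-metabolising and amino acid-degrading enzymes were higher. At a limma adjusted p under 0.05 there were 1713 called genes, 329 higher (3.11% of those tested) and 1384 lower (13.1%). Since the term pools both diets, it favours genes whose within-diet differences have the same sign, as 1704 of these had and 9 had not. The covariate term alone does not show that each diet contributed: 659 called genes had an unadjusted p under 0.05 on both diets, 881 on CDAHFD only, 171 on NC only and 2 on neither. The difference was larger in size on CDAHFD for 1399, and 150 were also among the 711 genes called for a diet by RIC interaction (6.72% of those tested). Without CDAHFD sham 2 and 5, 1648 genes were called, 390 higher and 1258 lower.

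The excess of falls depended on the scaling. Calls were 276 higher and 833 lower after rescaling to a common sum, but 748 higher (55.7%) and 595 lower after median-ratio scaling and 735 higher (52.5%) and 665 lower after quantile normalization, against 19.2% higher as deposited. The summed FPKM was 502693 ± 8370 in NC RIC against 490879 ± 7663 in NC sham, and 436128 ± 11500 in CDAHFD RIC against 471476 ± 23388 in CDAHFD sham; its part in the balance was not tested beyond these scalings. The median difference of all genes tested was -0.07 as deposited and between -0.04 and 0.00 under the other scalings. The same dependence held within diets. On NC, 34 genes were called higher and 91 lower (1.18% of those tested), against 82 and 48 after median-ratio scaling, 38 and 21 after quantile normalization and 15 and 90 after rescaling to a common sum. On CDAHFD, 922 were called higher and 1964 lower (27.3%), against 1334 and 1042, 1481 and 1449, and 1215 and 978 in the same order. The interaction was called for 380 genes more positive and 331 more negative on CDAHFD. These counts were 406 and 292 after median-ratio scaling, 500 and 447 after quantile normalization and 669 and 155 with a common sum.

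Few genes passed when evidence was asked of each diet. A test that takes the larger of the 2 within-diet p-values called 8 genes, 7 lower (0.0662% of those tested) and 1 higher (0.00945%); the lower genes were Hspa1b, Dnajb1, P4ha1, Palld, Hspa8, the Hspa8 pseudogene Gm8355 and Fam102a, and the higher one was Zfp518a. This split was 2 higher and 3 lower after median-ratio scaling, 3 and 4 after quantile normalization and 0 and 4 after rescaling to a common sum, and 0 and 6 without CDAHFD sham 2 and 5. Called one diet at a time, 25 genes were lower on both diets and 4 higher on both, together 23.2% of the NC calls and 1% of the CDAHFD calls. A further 7 that were higher on NC were lower on CDAHFD, and 11 that were lower on NC were higher on CDAHFD. Over all genes tested 60.3% had the same sign on both diets, and the 2 sets of differences had a Pearson r of 0.15 and a Spearman rho of 0.207 across genes, which are not independent replicates and share the depth of their libraries.

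**Figure D1:**
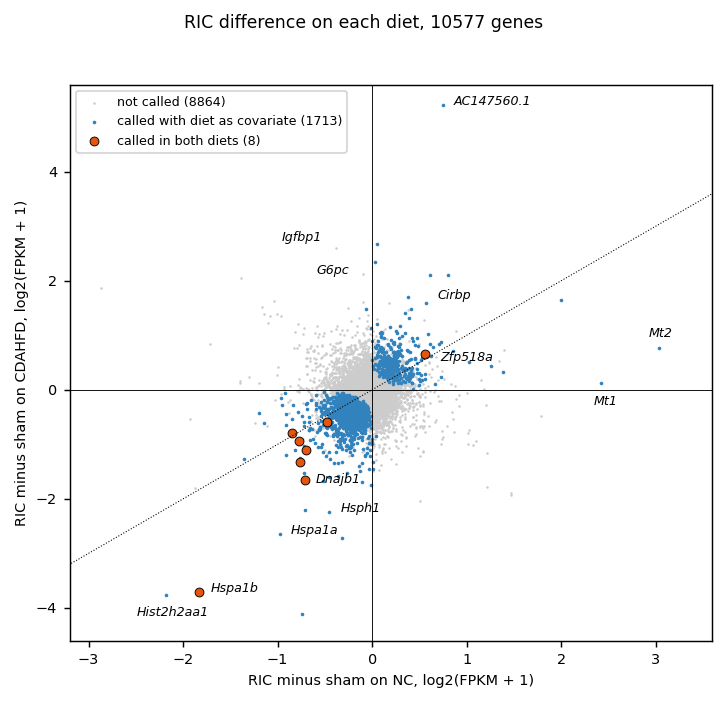
Difference of RIC from sham on NC (x axis) and on CDAHFD (y axis), both on the log2(FPKM + 1) scale, for 10577 genes; blue marks the 1713 genes called with diet as a covariate, orange the 8 called in both diets, and the dotted line equal differences. Hspa1b lies at -1.83 and -3.71, Mt1 and Mt2 lie far to the right near the x axis, and Igfbp1 and G6pc lie above it to the left with no call.

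Hspa1b, one of 2 stress-induced HSP70 genes (chromosome 17, 34956436 to 34959238, mm10, positions here and below from GENCODE), had the largest fall of the 8. Its FPKM was 17.9, 20.7, 8.82, 9.96 and 15.1 in NC sham and 2.47, 3.15, 2.26, 3.88 and 4.48 in NC RIC. On CDAHFD it was 55.7, 20.5, 42.4, 32.9 and 33.3 in sham and 1.54, 1.44, 1.58 and 2.61 in RIC. Each RIC sample lay below each sham sample of its diet. Means went from 14.5 ± 5.08 to 3.25 ± 0.937 on NC (4.46-fold lower, difference -1.83 ± 0.24) and from 37 ± 13.1 to 1.79 ± 0.548 on CDAHFD (20.6-fold lower, -3.71 ± 0.26; limma, adjusted p of the both-diets test 0.00462). The fall was larger on CDAHFD (interaction -1.88 ± 0.35, limma adjusted p = 0.00449), where the sham level was also higher.

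Dnajb1, an HSP40 co-chaperone that delivers substrates to HSP70 (chromosome 8, 83608193 to 83612653), followed the same order. It stood at 12.3, 10.5, 7.91, 9.16 and 9.32 FPKM in NC sham and 4.94, 5.75, 5.88, 5.28 and 6.01 in NC RIC, and at 19.6, 17.1, 18.1, 15.6 and 20 in CDAHFD sham and 5.54, 5.27, 4.33 and 5.2 in CDAHFD RIC. The RIC samples of both diets lay in 1 narrow range below all sham samples, although sham levels differed between diets. The difference was -0.71 ± 0.10 on NC and -1.65 ± 0.11 on CDAHFD (adjusted p of the both-diets test 0.00495; interaction -0.94 ± 0.15, limma adjusted p = 0.00122). Hspa1b and Dnajb1 kept the both-diets call in 30 of 31 settings, each single-sample omission included, and lost it when each diet was fitted alone (adjusted p = 0.054 and 0.111), although both were called lower on each diet in those separate fits.

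Hspa8, the constitutive HSP70 (chromosome 9, 40800984 to 40810087), was the most abundant of the 8. It was listed at 413, 507, 367, 366 and 418 FPKM in NC sham, 201, 230, 331, 224 and 229 in NC RIC, 469, 332, 358, 428 and 464 in CDAHFD sham, and 174, 225, 249 and 208 in CDAHFD RIC. No RIC sample reached a sham sample of its diet, and the differences were -0.78 ± 0.14 on NC and -0.93 ± 0.15 on CDAHFD (interaction -0.15 ± 0.20, limma adjusted p = 0.691). The both-diets call (adjusted p = 0.041) was made in 12 of 31 settings, and its highest adjusted p over them was 0.4. Processed pseudogenes of Hspa8 moved with it: Gm8355 (98.7% identical over 1941 bases), Gm15459 (99.7%) and Gm6210 (98.6%) had differences of -0.89 ± 0.10, -0.68 ± 0.08 and -0.99 ± 0.13 with diet as a covariate. Reads of such copies may belong to the parent gene, so they are no separate evidence.

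Hspa1a, the near-identical neighbour of Hspa1b (99.1% over 2200 bases; chromosome 17, 34969190 to 34972156), separated in the same way. Its FPKM was 1.78 to 3.47 in NC sham and 0.401 to 1.14 in NC RIC, and 5.08 to 14.6 in CDAHFD sham and 0.437 to 0.785 in CDAHFD RIC. It fell with diet as a covariate (-1.76 ± 0.23, limma adjusted p = 2.84e-04) but missed the both-diets call (0.0852). A read of one can map to the other, so the split of signal between this pair is uncertain.

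**Figure D2:**
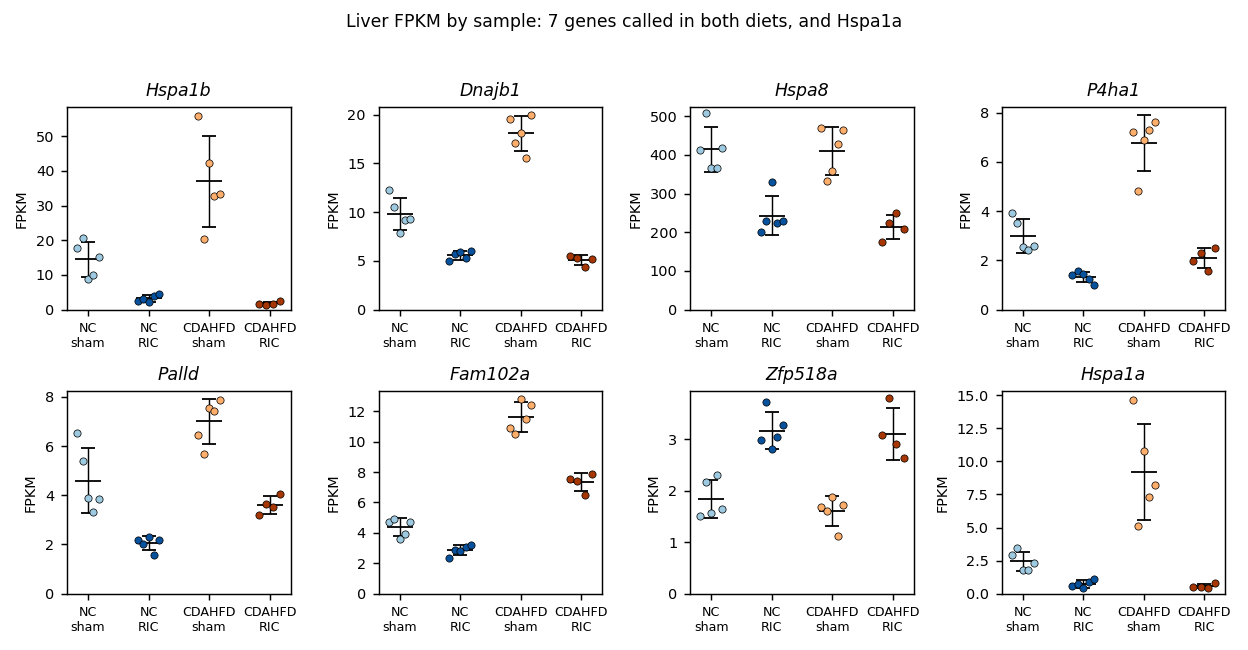
FPKM in each of the 19 samples for 7 of the 8 genes called in both diets (the pseudogene Gm8355 is not drawn) and for Hspa1a; points are samples, horizontal bars means and error bars SD. In all 8 panels the RIC samples of a diet do not overlap its sham samples, lower in 7 genes and higher in Zfp518a.

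Upstream sequences were examined because stress-induced chaperone genes are known for a shared regulatory element. The RefSeq promoters of GRCm38.p6 (mm10; 250 bases before to 50 after the start) were searched on both strands for the heat shock element GAANNTTC, which reads the same on either strand, and for its form with 3 alternating units. Capitals mark the matches, and positions count from the start, whose base is 1. Hspa1b and Hspa1a are shown as the chaperone genes with the largest falls, Fkbp4, Chordc1 and Hsph1 as further called chaperone genes with a match, and Dnajb1 (first of 2 starts) as a gene called in both diets with none in this window.
Hspa1b, chr17:34959239-34959488, minus strand, bases -250 to -1: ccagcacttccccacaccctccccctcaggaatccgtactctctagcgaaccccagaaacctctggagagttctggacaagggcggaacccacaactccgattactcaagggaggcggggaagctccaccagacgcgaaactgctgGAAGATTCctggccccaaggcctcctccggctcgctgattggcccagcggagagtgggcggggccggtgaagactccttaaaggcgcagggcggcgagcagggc
Hspa1a, chr17:34972157-34972406, minus strand, bases -250 to -1: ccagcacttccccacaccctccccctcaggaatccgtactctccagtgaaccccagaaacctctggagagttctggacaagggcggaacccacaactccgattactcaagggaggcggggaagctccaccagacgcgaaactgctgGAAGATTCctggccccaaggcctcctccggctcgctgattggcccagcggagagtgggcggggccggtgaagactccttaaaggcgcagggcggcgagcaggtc
Fkbp4, chr6:128438657-128438906, minus strand, bases -250 to -1: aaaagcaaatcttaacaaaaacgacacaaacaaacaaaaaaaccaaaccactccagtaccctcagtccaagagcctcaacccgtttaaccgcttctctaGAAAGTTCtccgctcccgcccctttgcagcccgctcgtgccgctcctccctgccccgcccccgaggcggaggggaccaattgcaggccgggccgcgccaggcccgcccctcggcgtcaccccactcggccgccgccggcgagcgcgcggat
Dnajb1, chr8:83607925-83608174, plus strand, bases -250 to -1: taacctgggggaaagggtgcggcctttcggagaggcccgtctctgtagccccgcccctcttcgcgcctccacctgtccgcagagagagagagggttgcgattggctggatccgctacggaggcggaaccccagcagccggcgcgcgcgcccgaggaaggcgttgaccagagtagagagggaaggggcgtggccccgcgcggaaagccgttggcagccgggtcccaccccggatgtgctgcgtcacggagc
Chordc1, chr9:18292259-18292288, plus strand, bases -8 to 22: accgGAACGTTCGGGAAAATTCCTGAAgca
Hsph1, chr5:149636287-149636316, minus strand, bases 21 to 50: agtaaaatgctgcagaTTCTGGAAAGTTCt
The upstream bases of Hspa1b and Hspa1a differed at 3 of 250 positions, and each held 1 match, beginning at base -104. In Fkbp4 it began at -151. Chordc1 and Hsph1 held matches that join into the 3-unit form at or just after the start. Of 16 chaperone genes called lower whose promoter could be read, 8 held the element (50%), as did 6 of 10 that were tested and not called (60%), against 7.07% of genes tested and 9.04% of all genes, each counted at any start. Of all 32851 single promoters 7.86% held it. Within the list the element was no more frequent in the genes called lower than in those not called with diet as a covariate. The latter are not all unchanged. Hspb1 and Dnaja4, which held the element, were called lower on CDAHFD (-1.19 and -0.35, limma adjusted p = 0.0115 and 0.0305). Among all called genes it was as common as elsewhere, in 7.08% of those lower and 5.04% of those higher, against 7.07% of genes tested. No promoter of P4ha1, Palld, Fam102a or Zfp518a held it. Of the other motifs searched, the E-box CACGTG stood in 7.15% of single promoters and, counted by gene at any start, in 12.2% of genes tested, 12.9% of those lower and 15.5% of those higher. In the same order the cAMP element TGACGTCA stood in 1.79%, 3.58%, 4.83% and 2.94%, and the forkhead element GTAAACA in 3.65%, 3.47%, 2.36% and 6.3%.

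Most heat shock chaperones and cofactors of the list were lower after RIC. Of 31 tested members (of 32) 19 fell with diet as a covariate (61.3%, beside 13.1% of all genes called lower), 12 did not pass and none was called higher by limma. At an unadjusted p under 0.05, 24 were lower and 0 higher. Unadjusted counts of list members, here and below, are given without the share of all genes at that threshold. The 13.1% holds for adjusted p only. The median difference was -0.52, beside -0.07 for all genes. In 25 members values were lower on both diets. On NC 7 of 31 were called lower and on CDAHFD 23, beside 91 and 1964 of all 10577 genes tested. The list's medians were -0.21 on NC and -0.77 on CDAHFD, beside -0.06 and -0.08 for all genes. In 5 members (Hspa1b, Hspa1a, Dnajb1, Hspa8 and Hsf2) the RIC and sham samples did not overlap on either diet, where 0.709% of all genes tested did so lower and 0.132% higher. Across the other settings 17 to 22 members were called lower, with at most 1 higher, and 18 to 21 with each sample left out in turn. Without CDAHFD sham 2 and 5 the count was 19.

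Members differed in how evenly the fall was shared. Hsf2, a heat shock factor, went from 3.88 ± 0.633 to 2.43 ± 0.397 FPKM on NC and from 5.99 ± 0.801 to 3.59 ± 0.391 on CDAHFD, with differences of -0.51 ± 0.10 and -0.60 ± 0.11 (limma adjusted p with diet as a covariate 3.83e-04). Bag3, a nucleotide exchange factor of HSP70, had -0.53 on NC and -1.0 on CDAHFD (5.05e-04), and Chordc1, an HSP90 cofactor, -0.37 and -0.85 (0.00305). Hsp90ab1, the constitutive HSP90, went from 178 ± 20.6 to 146 ± 22.5 and from 237 ± 23.4 to 157 ± 11.8 FPKM (difference -0.43 ± 0.08, limma adjusted p = 0.00423). Other members fell mostly on CDAHFD. Hsph1, an HSP110 exchange factor, was at 10.9 to 21.1 FPKM in NC sham and 9.54 to 18.2 in NC RIC, which overlapped, and at 13.9 to 20.8 against 1.99 to 3.66 on CDAHFD, which did not (interaction -1.78 ± 0.26, limma adjusted p = 9.31e-04). Fkbp4, an HSP90-bound immunophilin, had -0.10 ± 0.15 on NC and -1.34 ± 0.16 on CDAHFD (interaction adjusted p = 0.00251), and Dnaja1 -0.20 and -0.89 (0.0193). In all 12 members with a called interaction the difference was more negative on CDAHFD. The mitochondrial chaperonin Hspd1 (-0.12, limma adjusted p = 0.22) and the small heat shock protein genes Hspb6 (0.01) and Hspb8 (-0.17) did not pass. Hspe1 was called lower (-0.24, limma adjusted p = 0.0413). Hspb1 (-0.54) and Cryab (-0.32) did not pass with diet as a covariate. On CDAHFD alone both were called lower (-1.19 and -0.77, limma adjusted p = 0.0115 and 0.00318).

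**Figure D3:**
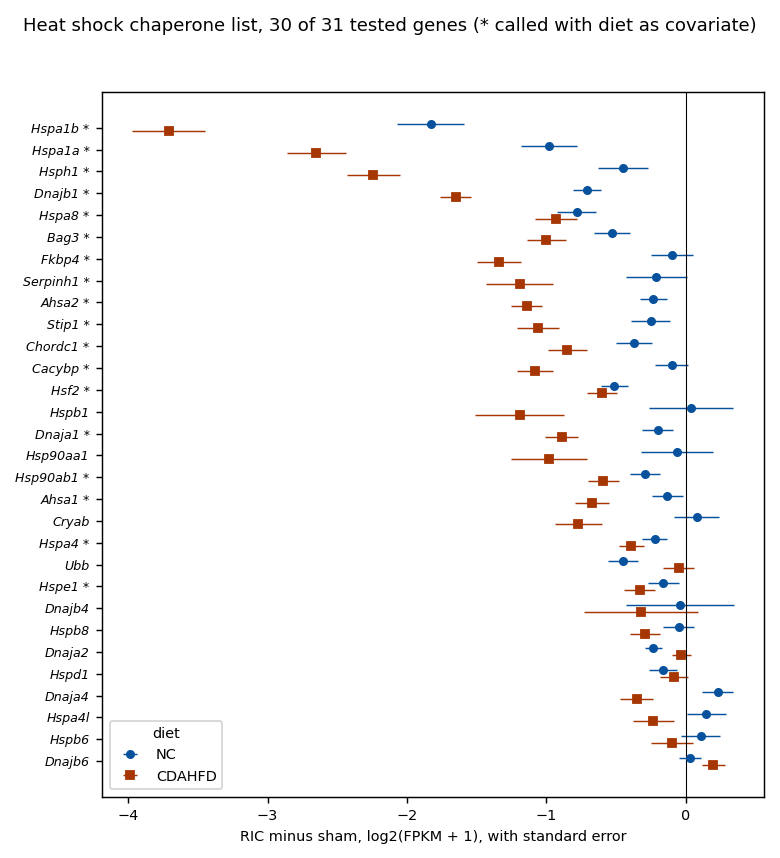
Difference of RIC from sham (x axis, log2(FPKM + 1), with SE) for 30 of the 31 tested members of the heat shock chaperone list, on NC (circles) and CDAHFD (squares); an asterisk marks a call with diet as a covariate. For Hspa8 and Hsf2 both diets lie close together, while Hsph1, Fkbp4 and Cacybp lie near 0 to -0.45 on NC and at -1.08 to -2.24 on CDAHFD.

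Outside the chaperones, 4 genes were called in both diets. P4ha1, a collagen prolyl hydroxylase subunit that also belongs to the hypoxia list (chromosome 10, 59323296 to 59373304), stood at 3.91, 3.53, 2.55, 2.42 and 2.57 FPKM in NC sham and 1.39, 1.56, 1.43, 1.26 and 1.02 in NC RIC. On CDAHFD it stood at 7.23, 4.8, 6.87, 7.28 and 7.61 in sham and 1.98, 2.3, 1.57 and 2.52 in RIC. The differences were -0.76 ± 0.13 and -1.32 ± 0.13 (adjusted p of the both-diets test 0.0269), and the lowest sham sample lay above the highest RIC sample on each diet. The call was made in 22 of 30 settings and ended without NC sham 1 or 2 or NC RIC 1, 4 or 5 (adjusted p up to 0.0898). It also ended without a filter on low values, with the replicate block and with each diet fitted alone. The highest adjusted p of the both-diets test over all settings was 0.139.

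Palld, which encodes palladin, an actin-bundling protein (chromosome 8, 61511433 to 61902690), went from 4.6 ± 1.34 to 2.06 ± 0.285 FPKM on NC and from 7 ± 0.92 to 3.61 ± 0.362 on CDAHFD. Its differences of -0.84 ± 0.13 and -0.79 ± 0.14 were the most alike among the genes called in both diets (interaction 0.05 ± 0.19, limma adjusted p = 0.898). Fam102a went from 4.38 ± 0.571 to 2.86 ± 0.336 and from 11.6 ± 0.975 to 7.33 ± 0.577 (-0.48 ± 0.09 and -0.60 ± 0.09). Zfp518a, a zinc finger gene (chromosome 19, 40894705 to 40917947), was at 1.51, 2.16, 1.56, 2.3 and 1.64 FPKM in NC sham and 2.98, 3.72, 2.81, 3.04 and 3.28 in NC RIC, and at 1.69, 1.61, 1.88, 1.12 and 1.72 in CDAHFD sham and 3.09, 3.8, 2.9 and 2.63 in CDAHFD RIC. Its RIC samples lay above the sham samples on each diet, 1.73-fold higher on NC and 1.93-fold on CDAHFD. These 3 both-diets calls were near the threshold (adjusted p = 0.041, 0.0433 and 0.0433) and were made in 13 of 30, 10 of 31 and 7 of 30 settings.

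Of 15 tested genes of the hypoxia response 5 fell (P4ha1, Vegfa, Aldoa, Ndrg1 and Egln1; 33.3%, beside 13.1% of all genes) and 10 did not pass, with a median difference of -0.15 beside -0.07; under the 3 other scalings 3 were called lower and up to 1 higher. Vegfa, the vascular growth factor, was at 17.1 to 21.4 FPKM in NC sham and 13.7 to 16.9 in NC RIC, and at 18.1 to 27.8 in CDAHFD sham and 14.3 to 16.2 in CDAHFD RIC. The groups did not overlap on either diet, and its difference was -0.41 ± 0.07 (limma adjusted p = 0.00245). Aldoa, a glycolytic aldolase, separated in the same way (12.9 to 22.9 against 11.6 to 12.8, and 52.2 to 74.1 against 28.2 to 40.1; difference -0.55 ± 0.11, limma adjusted p = 0.00474).

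Metallothionein genes rose, mainly on NC. Mt2 was at 24.7, 20.6, 171, 12.2 and 12.4 FPKM in NC sham and 341, 142, 266, 417 and 116 in NC RIC. On CDAHFD it was at 80.6, 55.5, 52.7, 79.5 and 41.2 in sham and 141, 62.4, 82.2 and 152 in RIC. NC sham 3 lay within the range of NC RIC, and the CDAHFD groups overlapped. The differences were 3.04 ± 0.54 on NC and 0.76 ± 0.57 on CDAHFD, and 1.97 ± 0.46 with diet as a covariate (limma adjusted p = 0.00978; interaction -2.28 ± 0.79, adjusted p = 0.086). Mt1 had 2.42 ± 0.42 on NC (24.1 ± 25.9 to 107 ± 45.3 FPKM) and 0.12 ± 0.44 on CDAHFD (84.9 ± 26.6 to 94 ± 37), so its call with diet as a covariate (1.34 ± 0.39, limma adjusted p = 0.0274) came from NC. That call ended without a filter on low values (0.0809), with the replicate block (0.0532) and without NC sham 1 (0.0514) or NC RIC 4 (0.0516). Slc30a1, a zinc exporter gene, had 0.25 on NC and 0.24 on CDAHFD (0.24 ± 0.07, limma adjusted p = 0.0291) and lost its call without a filter (0.0586), with the block (0.0513) and without NC sham 5 (0.0511), CDAHFD sham 3 (0.0533) or CDAHFD RIC 1 (0.0618). Of the list's 8 tested members these 3 rose (37.5%, beside 3.11% of all genes) and 5 did not pass.

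Cirbp, a cold-inducible RNA-binding protein gene (chromosome 10, 80165985 to 80172786), rose while the chaperones fell. It was at 2.69, 2.52, 2.8, 2.67 and 4.57 FPKM in NC sham and 6.32, 6.26, 7.28, 2.42 and 3.89 in NC RIC, which overlapped, and at 2.69, 4.18, 2.53, 4.35 and 2.81 in CDAHFD sham and 9.26, 12.2, 12.1 and 14.3 in CDAHFD RIC, which did not. The difference with diet as a covariate was 1.05 ± 0.19 (limma adjusted p = 0.00285), 0.57 ± 0.21 on NC and 1.60 ± 0.22 on CDAHFD. Rbm3, the other cold-inducible gene of that list, did not pass (0.08 ± 0.08, limma adjusted p = 0.497), at 13.7 ± 1.13 against 13.6 ± 1.2 on NC and 31.3 ± 1.81 against 36.5 ± 7.92 on CDAHFD.

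**Figure D4:**
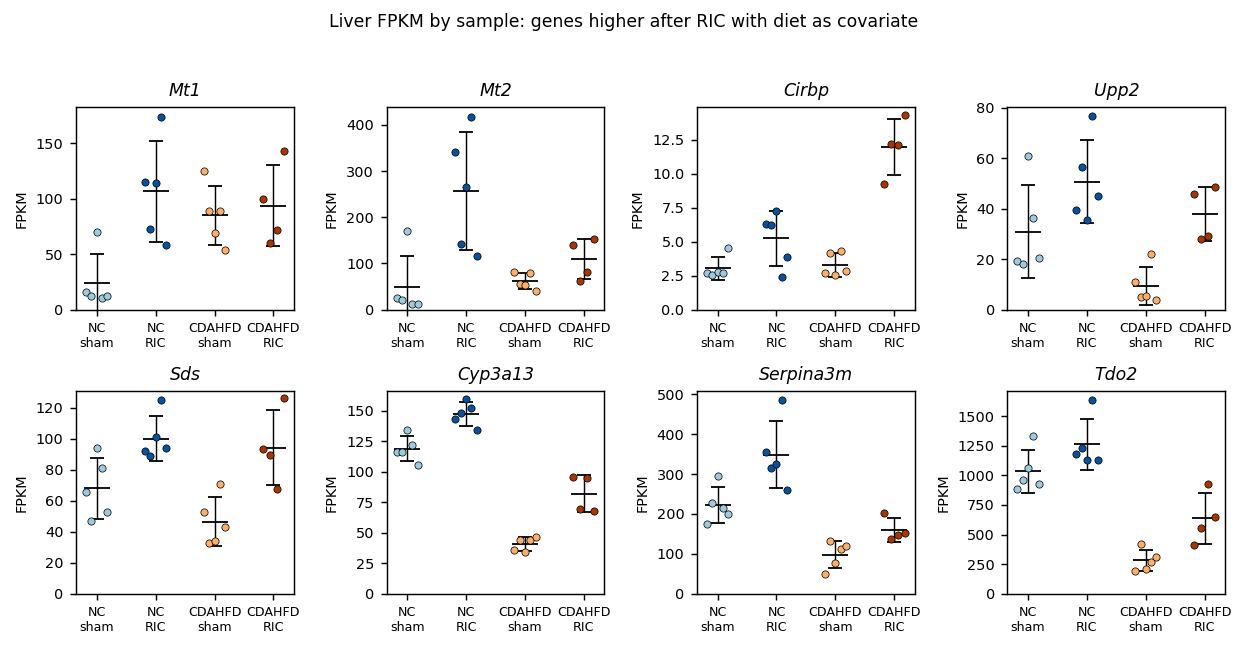
FPKM in each of the 19 samples for 8 genes called higher after RIC with diet as a covariate; points are samples, horizontal bars means and error bars SD, drawn down to 0 where they would pass below it. Mt1 and Mt2 separate chiefly on NC with NC sham 3 high, Cirbp chiefly on CDAHFD, and in Cyp3a13 the groups do not overlap on either diet.

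Of 29 tested gluconeogenesis and fasting genes, 20 (69%) had differences of opposite sign on the diets, beside 39.6% of all genes tested, with medians of -0.13 on NC and 0.40 on CDAHFD. Of 35 PPAR-alpha and fatty acid oxidation genes 26 (74.3%) had opposite signs (medians -0.27 and 0.24). Under the 3 other scalings the shares were 65.5 to 72.4% and 62.9 to 80%, beside 40.9 to 43.6% of all genes. Igfbp1, a secreted binding protein known to rise in fasting, had -0.39 on NC and 2.59 on CDAHFD (interaction 2.98, limma adjusted p = 0.0171) and was not called with diet as a covariate (adjusted p = 0.144); G6pc, of hepatic glucose release, likewise had -0.10 and 2.13 (0.0965). The members Sds and Upp2 rose (6.9%, beside 3.11% of all genes). Sds, serine dehydratase, was at 47 to 94.2 FPKM in NC sham and 88.6 to 125 in NC RIC, and at 32.8 to 70.5 and 67.3 to 126 on CDAHFD (0.79 ± 0.16, limma adjusted p = 0.00478). Upp2, a uridine phosphorylase, went from 31 ± 18.2 to 50.7 ± 16.5 and from 9.41 ± 7.57 to 37.8 ± 10.7 (1.42 ± 0.31, limma adjusted p = 0.00681). RIC and sham samples of both genes overlapped on NC, and those of Sds also on CDAHFD.

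Genes of 3 drug-metabolising Cyp3a enzymes rose. Of 33 tested cytochrome P450 genes of families 1 to 3 with their regulators, 5 rose (Cyp3a13, Cyp3a59, Cyp3a25, Cyp2c29 and the heme synthesis gene Alas1), 3 fell (Cyp1a2 and the receptor genes Ahr and Nr1i3) and 25 did not pass, beside 3.11% of all genes called higher; the list's median was 0.11. Cyp3a13 (chromosome 5, 137892932 to 137921619) was at 106 to 134 FPKM in NC sham, 134 to 160 in NC RIC, 34.4 to 46.5 in CDAHFD sham and 68 to 96 in CDAHFD RIC. The NC groups touched at 134 without overlapping, where the difference was 0.31 ± 0.11, and were apart on CDAHFD (0.98 ± 0.12; interaction 0.67, limma adjusted p = 0.0193). Cyp3a59 had 0.42 and 0.95 (limma adjusted p = 0.00579 with diet as a covariate) and Cyp3a25 0.19 and 0.78 (0.0129). Members of this family are close copies, so single genes are uncertain. Cyp1a2, of caffeine metabolism, went the other way, from 158 ± 40.5 to 69.8 ± 10.6 FPKM on NC and from 70.3 ± 19.9 to 53.4 ± 40.5 on CDAHFD (-0.89 ± 0.23, limma adjusted p = 0.015).

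Single genes of amino acid breakdown and secretion rose, while most members of their lists did not pass. Of 23 urea cycle and amino acid genes Hal and Tdo2 rose (8.7%, beside 3.11% of all genes), 1 fell (4.35%, beside 13.1%) and 20 did not pass. Hal, which starts histidine breakdown, had 0.34 on NC and 1.04 on CDAHFD (0.67 ± 0.14, limma adjusted p = 0.00508), and Tdo2, which starts tryptophan breakdown, 0.29 and 1.17 (0.70 ± 0.18, 0.0144). Afmid, the next enzyme of the tryptophan route, rose as well (0.80 ± 0.19, limma adjusted p = 0.0108), with 0.73 on NC and 0.88 on CDAHFD, as did the cationic amino acid transporter gene Slc7a2 (0.92 ± 0.22, 0.0103). The acute phase serpin Serpina3m went from 222 ± 45.2 to 349 ± 84.3 and from 97.1 ± 33.8 to 160 ± 29.5 FPKM (0.71 ± 0.16, limma adjusted p = 0.00862). Of its 24-gene list 3 rose (12.5%, beside 3.11% of all genes), 1 fell (4.17%, beside 13.1%) and 20 did not pass. Srebf1, a regulator of fat synthesis, rose slightly (0.47 ± 0.13, limma adjusted p = 0.0204; 0.0574 without a filter on low values), with CDAHFD RIC 1 at 11.2 FPKM against 4.66 to 5.35 in the other 3.

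Among further large rises, Hist1h1c, a linker histone, went from 20.7 ± 5.22 to 57.2 ± 21.4 FPKM on NC and from 56.1 ± 10 to 69.4 ± 3.08 on CDAHFD (0.88 ± 0.19, limma adjusted p = 0.00583). Onecut1, a hepatocyte transcription factor gene, had 1.26 and 0.43 (0.87 ± 0.25, 0.0247; 0.0732 without a filter on low values). Gpcpd1, a glycerophosphocholine phosphodiesterase gene, had 0.61 and 2.11 (1.32 ± 0.28, limma adjusted p = 0.00627), and the transporter gene Abca6 0.35 and 1.40 (0.85 ± 0.19, 0.00717). Klf9, a glucocorticoid-responsive factor, had 0.10 and 0.77 (0.42 ± 0.11, limma adjusted p = 0.0197; 0.0523 without a filter), while Fkbp5, a common glucocorticoid marker, did not pass (0.17 ± 0.12, 0.328). Of the 20 tested glucocorticoid genes 4 rose (20%, beside 3.11% of all genes), Mt1 and Mt2 among them, 1 fell (5%, beside 13.1%) and 15 did not pass.

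Of 23 ER chaperone and unfolded protein response genes 5 fell (21.7%, median -0.20), of 15 integrated stress response genes 5 (33.3%, median -0.21) and of 27 NRF2 targets and antioxidant enzymes 6 (22.2%, median -0.10), beside 13.1% and a median of -0.07 over all genes. None of these was called higher by limma with diet as a covariate. At an unadjusted p under 0.05 these lists had 1, 0 and 1 members higher and 9, 6 and 10 lower. Counts of called members depended on scaling: under the 3 others 2 to 4, 2 to 3 and 4 to 5 members were called lower, with up to 1 ER and 1 NRF2 member higher. Of the members called as deposited, 0, 3 and 5 had an unadjusted limma p under 0.05 on both diets. For 5, 1 and 1 this held on CDAHFD only, and for 0, 1 and 0 on NC only. Ddit3 (CHOP), a stress transcription factor, was at 2.52 to 3.79 FPKM in NC sham and 1.88 to 2.34 in NC RIC, and at 9.21 to 12.9 and 2.83 to 5.66 on CDAHFD, with no overlap on either diet (-0.83 ± 0.13, limma adjusted p = 0.00101). The calcium-binding ER chaperone gene Calr (-0.60 ± 0.15, limma adjusted p = 0.0155) and Sdf2l1 (-0.78 ± 0.22, 0.025; 0.0548 without CDAHFD RIC 3) fell, as did Shmt2, of mitochondrial serine use (-0.30 ± 0.08, 0.0149). Within diets, Calr and Sdf2l1 were called on CDAHFD and not on NC, and Shmt2 on neither. The diet-covariate call of Shmt2 ended with median-ratio scaling (0.0639) and quantile normalization (0.0527), and that of Sdf2l1 also without a filter on low values (0.0732). Nfe2l2, which encodes NRF2, fell by 0.54 (± 0.09, limma adjusted p = 0.00174), the peroxiredoxin gene Prdx6 by 0.39 and superoxide dismutase Sod1 by 0.33. The RIC and sham samples of Prdx6 and Sod1 did not overlap on either diet.

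Of 23 tested immediate early genes 6 fell (26.1%, beside 13.1% of all genes), 1 rose (4.35%, beside 3.11%) and 16 did not pass. Under the 3 other scalings 2 were called lower. Dusp6, a MAP kinase phosphatase, had -0.72 on NC and -0.59 on CDAHFD (-0.66 ± 0.10, limma adjusted p = 0.00117), and Fosl2 -0.19 and -0.45 (-0.31 ± 0.07, 0.0106). Fos and Jun did not pass with diet as a covariate (limma adjusted p = 0.0899 and 0.0917); Jun had 0.10 on NC and -1.38 on CDAHFD. In the clock list 2 of 19 fell (10.5%, beside 13.1%) and 17 did not pass: Per2 had -0.36 and -1.34 (-0.82 ± 0.15, limma adjusted p = 0.00344) and Bhlhe40 -0.42 and -0.34 (-0.38 ± 0.09, 0.00762). Cipc, a CLOCK-interacting gene, was lower on both diets (-1.36 and -1.28; -1.32 ± 0.33, limma adjusted p = 0.0142), with CDAHFD RIC 2 at 6.56 FPKM against 0.499 to 0.745 in the other 3.

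Of 32 tested matrix genes 5 fell (15.6%, beside 13.1% of all genes) and 27 did not pass, with medians of -0.12 on NC and -0.46 on CDAHFD. Mmp14, a membrane matrix protease, had -0.19 and -0.39 (-0.28 ± 0.07, limma adjusted p = 0.0167) and Ctgf, a matricellular growth factor, -0.46 and -1.61 (-1.0 ± 0.25, 0.0142). Thbs1 was near 0 FPKM on NC (0.0785 ± 0.0575 and 0.0822 ± 0.0434) and went from 5.01 ± 1.42 to 1.18 ± 0.507 on CDAHFD, so its call with diet as a covariate (-0.68 ± 0.19, limma adjusted p = 0.0238; 0.0503 without CDAHFD RIC 1, 0.0594 without CDAHFD sham 2 and 5) describes 1 diet. It also ended without a filter on low values (0.0695) and with the block (0.0542).

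Other called genes likewise differed between diets. Eif1b, a translation initiation factor gene, had -0.03 on NC and -0.86 on CDAHFD, Atoh8, a transcription factor gene, -0.06 and -1.06, and Ppm1k, which activates branched-chain amino acid breakdown, -0.07 and 1.49 (interaction, limma adjusted p = 9.31e-04, 9.31e-04 and 2.54e-04). Ppm1k lost its diet-covariate call (0.0276) without CDAHFD sham 3 (0.0503) or CDAHFD RIC 1, 2, 3 or 4 (0.0511 to 0.0607), without CDAHFD sham 2 and 5 (0.0692), without a filter (0.0785), with array weights (0.0711) and with the block (0.0583). The call of Eif1b (0.0167) ended with median-ratio scaling (0.0523). Angptl8, a secreted regulator of lipoprotein lipase, was at 4.43 to 11.8 FPKM in NC sham and 2.89 to 9.34 in NC RIC, and at 39.3 to 118 in CDAHFD sham against 7.73 to 13.9 in CDAHFD RIC (interaction -2.39, limma adjusted p = 0.0047).

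**Figure D5:**
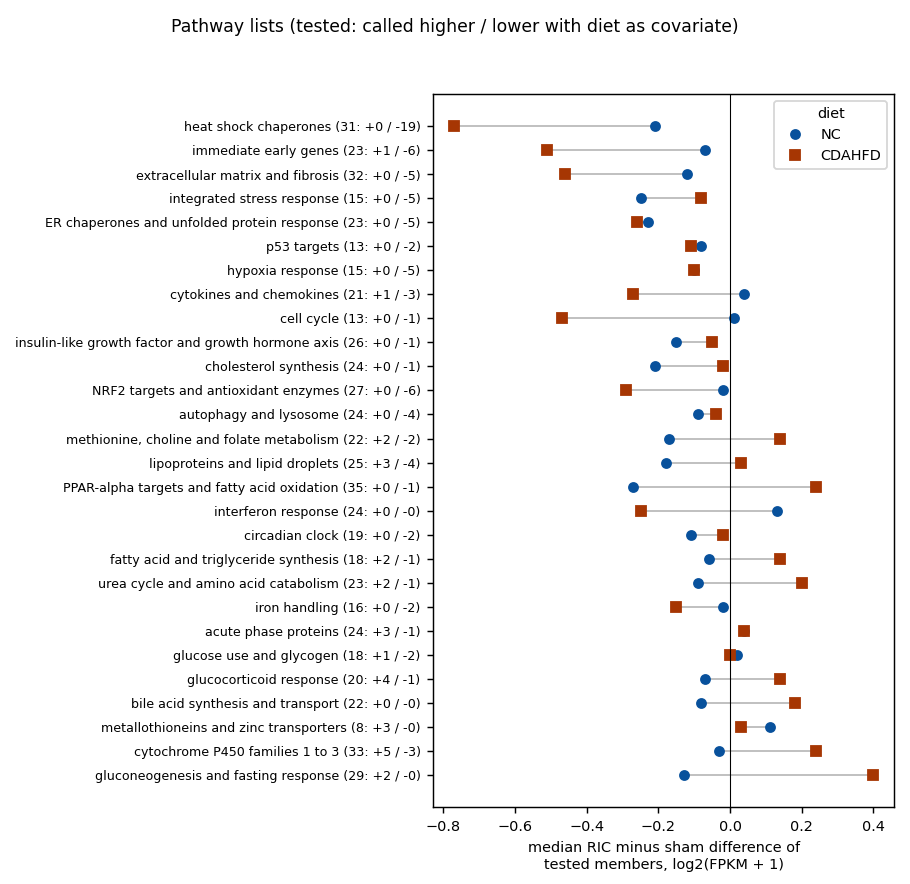
Median difference of RIC from sham (x axis, log2(FPKM + 1)) over the tested members of each pathway list with at least 5 of them, on NC (circles) and CDAHFD (squares); labels give members tested, called higher and called lower with diet as a covariate. The heat shock list has the lowest median on CDAHFD (-0.77), and the fasting and PPAR-alpha lists lie on opposite sides of 0 on the 2 diets.

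Some large differences rest on transcripts with values at 0, short length or a split within a group. Hist2h2aa1, a histone gene identical over 528 bases to Hist2h2aa2, was listed at 0 in 2 of 5 NC sham, 4 of 5 NC RIC, 1 of 5 CDAHFD sham and 4 of 4 CDAHFD RIC samples (difference -2.93 ± 0.69, limma adjusted p = 0.00989). The mitochondrial tRNA mt-Ti went from 164 ± 40 to 99 ± 20.5 and from 101 ± 41.1 to 22.5 ± 13.7 FPKM (-1.42 ± 0.27, limma adjusted p = 0.00344), and the mitochondrial rRNA mt-Rnr1 had -0.83 ± 0.18 (0.00583). Summed over 15 mitochondrially encoded transcripts the level was 102000 to 117000 FPKM in NC sham, 111000 to 126000 in NC RIC, 89900 to 117000 in CDAHFD sham and 82200 to 97800 in CDAHFD RIC. AC147560.1, a transcript named by its clone, was at 0.139 and 0.194 FPKM in NC sham 2 and 3 and at 22.8 to 25.2 in the other 3, so its call (2.86 ± 0.81, limma adjusted p = 0.0239) is set beside a split within 1 group.

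Markers of sinusoidal endothelial cells had lower values after RIC, with groups that overlapped. Their summed level (15 markers, none at 0 in every sample) was 19.7 to 42.9 FPKM in NC sham and 10.1 to 26 in NC RIC. It was 43.3 to 70.5 in CDAHFD sham and 24.9 to 59.3 in CDAHFD RIC. Of 14 tested members 3 fell (21.4%, beside 13.1% of all genes): Pecam1 (-0.35 ± 0.10, limma adjusted p = 0.0225), Eng (-0.46 ± 0.13, 0.0248) and Lyve1 (-0.68 ± 0.22, 0.0405). Under the 3 other scalings 0 to 1 of them was called by limma (8 lower and 0 higher at an unadjusted p under 0.05 as deposited). Hepatocyte markers summed to 53600 to 65000 in NC sham and 68300 to 78400 in NC RIC, and to 46800 to 50800 and 45300 to 57000 on CDAHFD. Of 15 tested, Alb (0.41 ± 0.09, limma adjusted p = 0.0067) and Apob rose (13.3%, beside 3.11% of all genes). Ttr fell (6.67%, beside 13.1%) and 12 did not pass. The median of the 15 was -0.04, beside -0.07 for all genes. Sums of Kupffer cell markers were 98.8 to 122 and 79.7 to 133 on NC and 464 to 621 and 516 to 929 on CDAHFD, and none of 12 tested passed by limma (1 lower at an unadjusted p under 0.05). B and plasma cell markers summed to 8.38 to 32.3 in NC sham and 8.32 to 27.4 in NC RIC, which overlapped, and to 63.2 to 98.5 and 26.1 to 55.6 on CDAHFD, which did not. Their 4 tested members had a median of 0.23 on NC and -0.72 on CDAHFD. On CDAHFD 3 of them were called lower, beside 1964 of all 10577 genes tested. By limma with diet as a covariate 0 were called (0 at an unadjusted p under 0.05). In bulk tissue fewer cells of a type and less RNA per cell cannot be told apart, and the part of these shifts in the gene results was not tested.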

How the data were processed

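Per the labels, liver RNA was taken up in Trizol and turned into libraries with VAHTS reagents. The authors deposited 1 table of FPKM with a column per sample. The submitters' processing notes list, giving no roles, the mm10 build, HISAT2 2.2.1, FastQC 0.11.9, HTSeq 0.13.5, Trimmomatic 0.38, R 3.4.1 and DESeq2 1.18.1. How the FPKM were computed, with which annotation and strand setting, is not given in the sources used here. Overlapping genes and close copies are therefore uncertain. FPKM is relative to each sample's total, so changes in abundant RNAs can shift the rest.

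Of 55335 entries, 3225 without a gene name (0.123 to 0.204% of FPKM) were left out. limma 3.58.1 (R 4.3.3) with an intensity trend was fitted to log2(FPKM + 1) of all 19 samples where a gene's mean FPKM was 1 or more, with Benjamini-Hochberg adjustment over 10577 genes and calls at 0.05. The RIC effect had diet as a covariate (16 residual degrees of freedom). Within-diet differences and the interaction came from a fit of the 4 groups (15), and the both-diets test took the larger within-diet p for differences of the same sign. Low values gave whole reads within 2% for only 24.9 to 29.3% of values, so reads were not recovered and no count test was run, and the depth is an estimate from single-exon genes. Positions were matched by symbol to GENCODE (91.8% of named entries). Scripts were tested on simulated data. Alternatives varied the pseudocount, filter, scaling, prior, weights, block, diet weighting (with the fit of the 4 groups) and samples.

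Members and gene lists were chosen with earlier results of these data known. The naming rule took the largest rises and falls, the smallest both-diets p, leading members of each list, the smallest interaction p and fixed genes, 115 in all. Of these 57 are reported with values, chosen after values were seen, with 8 others. 1 member of the heat shock list is counted but not reported here by name.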

Additional observations from a re-analysis of the deposited data

Results flagged for a closer look

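Among 260 groups checked over the 65 reported genes, 21 held a sample far from the rest; chance gives about 1 in 20. In chaperone and stress genes these were Hspa1b at 2.61 FPKM in CDAHFD RIC 4 (1.44 to 1.58 in the others), Hspa8 at 331 in NC RIC 3 (201 to 230), Dnaja1 at 41.5 in CDAHFD RIC 3 (30.1 to 31), P4ha1 at 4.8 (6.87 to 7.61) and Sdf2l1 at 8.67 (11.9 to 13.3) in CDAHFD sham 2, Nfe2l2 at 11.1 in NC RIC 5 (6.76 to 7.7), Prdx6 at 63.4 in CDAHFD sham 1 (53.2 to 53.7) and Sod1 at 112 in NC RIC 4 (127 to 130). NC sham 3 was high in Mt1 (70.3, others 10.1 to 16.2) and Mt2 (171, others 12.2 to 24.7) and low in Slc7a2 (26.7, others 47.4 to 58.8). Slc7a2 was also low in CDAHFD sham 4 (14.1, others 37.9 to 49.2). NC sham 5 was high in Cirbp (4.57, others 2.52 to 2.8) and Onecut1 (3.87, others 0.589 to 1.05). Further single values were Tdo2 at 1640 in NC RIC 4 (1130 to 1230), Srebf1 at 11.2 in CDAHFD RIC 1 (4.66 to 5.35), Ppm1k at 14.2 in NC sham 1 (18.5 to 20.5), and Angptl8 at 13.9 (7.73 to 8.39) and Cipc at 6.56 (0.499 to 0.745) in CDAHFD RIC 2. Hist2h2aa1 was at 1.7 in NC RIC 3, with the others at 0, and at 0 in CDAHFD sham 2 (12.5 to 36.4).

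The RIC difference itself differed between diets (limma interaction, adjusted p under 0.05) for 23 reported genes, and was larger in size on CDAHFD for 21 of them. The interaction, CDAHFD minus NC on the log2(FPKM + 1) scale, was -1.88 for Hspa1b, -0.94 for Dnajb1, -1.68 for Hspa1a, -1.78 for Hsph1, -1.24 for Fkbp4 and -0.69 for Dnaja1. It was -2.30 for Mt1, -1.07 for Hist1h1c, -2.39 for Angptl8, -1.49 for mt-Ti, -0.72 for Ddit3, -0.97 for Per2, -1.46 for Thbs1, -0.82 for Eif1b, -1.0 for Atoh8 and -1.48 for Jun. Positive interactions were 1.02 for Cirbp, 1.05 for Abca6, 0.67 for Cyp3a13, 0.67 for Klf9, 1.56 for Ppm1k, 2.98 for Igfbp1 and 2.22 for G6pc. With each sample left out in turn 15 of the 23 kept the call; Mt1, Cirbp, Hist1h1c, Abca6, Klf9, mt-Ti, Ddit3 and G6pc lost it at least once.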

How the results depend on the processing

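Of the 59 reported genes called with diet as a covariate, 49 kept the call in every setting run and 0 reversed. Counts of calls moved more. With diet as a covariate, 1713 genes became 1100 without a filter on low values, 1091 with a mean FPKM of at least 5 and 1109 after rescaling to a common sum. The 8 genes called in both diets became 2, 5 and 4 under these settings and 5 with median-ratio scaling. With each diet fitted alone 0 passed the limma both-diets test (655 at an unadjusted p under 0.05 in both, 114 higher and 541 lower), although 11 genes were called on each diet separately in one direction (2 higher, 9 lower), among them Hspa1b, Dnajb1 and Hspa8. Within NC, 125 became 48 without a filter, 59 with quantile normalization, 401 with array weights and 46 fitted alone. Within CDAHFD, 2886 became 1480 with a mean of at least 5 and 1868 fitted alone. The interaction's 711 became 386 with that filter and 1258 without CDAHFD sham 2 and 5. The cause was not tested, except that a fit of 1 diet has fewer samples. Leaving out 1 sample gave 1190 (without CDAHFD RIC 1) to 1893 calls with diet as a covariate, 2 (without NC sham 2, NC RIC 1 or NC RIC 4) to 10 in both diets, 13 (without NC sham 2) to 178 within NC, 2058 to 3245 within CDAHFD and 440 (without NC sham 2) to 1029 for the interaction. Same-numbered samples of a diet had correlations of -0.174 to 0.176 in their deviations from group means, 3 of 9 pairs over 0.1. The median was -0.0263, beside 0.0114 for pairs of other numbers. So few pairs of such small groups cannot show whether the numbers pair samples. With the replicate block the counts were 1279, 3, 79, 2547 and 600. Fos, G6pc, Igfbp1 and Jun were called in the setting that weighted the diets equally (limma adjusted p = 0.0402, 0.0256, 0.0307 and 0.0187). That setting averaged the 2 within-diet differences of the 4-group fit and called 2399 genes. It also let the RIC difference vary by diet, so the part of weighting alone was not tested. Depth, estimated only, limits genes near 1 FPKM.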
